A study of Mus musculus with 6 samples.

Results

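The miR-17-92 and miR-106b-25 clusters are a pair of related groups of microRNAs (miRNAs), each cut from a single primary transcript. The data cover 10 mature miRNAs: 7 arms of miR-17-92 (mmu-miR-17-5p, mmu-miR-17-3p, mmu-miR-18a-5p, mmu-miR-19a-3p, mmu-miR-19b-3p, mmu-miR-20a-5p and mmu-miR-92a-3p) and 3 of miR-106b-25 (mmu-miR-106b-5p, mmu-miR-93-5p and mmu-miR-25-3p), written below without the mouse prefix mmu. These 10 were taken by name from the 1247 mouse miRNAs on each array, and all 10 were detected on all 6 arrays. Levels were measured in 3 populations of tissue macrophage sorted from wild-type male C57BL6/J mice kept in pathogen-controlled housing: brain microglia, colon macrophages and Kupffer cells, the resident macrophages of the liver. Microglia were gated as CD45 intermediate, CD11b and F4/80 positive cells that lacked Ly6C and Ly6G, colon macrophages as CD45, CD11b, CD11c and CD64 positive cells without Ly6C, and liver macrophages as cells positive for CD45, CD11b, F4/80, CD64 and MHCII. The mice were untreated, aged 6 weeks per the sample labels and 6 to 8 weeks per the design text, and each of the 2 arrays of a group held RNA from a separate pool of 4 to 6 mice. Replicates are therefore pools, and their spread combines differences between pools and between arrays.

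Both clusters are known for supporting the cell cycle and cell survival. Transcription of miR-17-92 is driven by MYC and E2F factors, and miR-106b-25 lies in an intron of Mcm7, which encodes a subunit of the DNA replication helicase. Each mature miRNA pairs with messenger RNAs mainly through its seed (bases 2 to 8 from its 5′ end), so members that share a seed share most predicted targets. In the mouse miR-17-92 is required for B cell development and lung growth. In human monocyte precursors miR-17-5p and miR-20a-5p are known to restrain RUNX1 and with it monocyte differentiation.

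The mature sequences are shown because the seed divides the 10 miRNAs into 5 families by which the levels are described below. RefSeq (GRCm38.p6) held a sequence for all 10. Capitals mark the seed.
miR-17-5p: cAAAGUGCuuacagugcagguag
miR-20a-5p: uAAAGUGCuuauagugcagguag
miR-106b-5p: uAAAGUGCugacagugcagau
miR-93-5p: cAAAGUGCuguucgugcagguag
miR-18a-5p: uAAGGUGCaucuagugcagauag
miR-19a-3p: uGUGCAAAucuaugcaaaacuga
miR-19b-3p: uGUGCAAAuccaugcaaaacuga
miR-92a-3p: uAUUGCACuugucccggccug
miR-25-3p: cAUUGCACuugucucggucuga
miR-17-3p: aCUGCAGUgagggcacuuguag

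The 4 members with the miR-17 seed AAAGUGC come from both clusters. miR-18a-5p, with AAGGUGC, stands alone, as does miR-17-3p. miR-19a-3p and miR-19b-3p share GUGCAAA and differ by 1 of 23 bases (U11C, counted from the 5′ end with miR-19a-3p first). miR-17-5p and miR-20a-5p differ at 2 of 23 bases (C1U and C12U, miR-17-5p first), and miR-92a-3p and miR-25-3p at 3 of the 21 bases they have in common. Hybridization between such close sequences was not tested, so signals within a family may not be fully separate.

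The 6 hairpin genes of miR-17-92 lie within 836 bases on the plus strand of chromosome 14 (chr14:115043671-115044506), in the order Mir17, Mir18, Mir19a, Mir20a, Mir19b-1 and Mir92-1. Those of miR-106b-25 lie within 498 bases on the minus strand of chromosome 5 (chr5:138165321-138165818), inside the span of Mcm7, in the order Mir106b, Mir93 and Mir25. Mature miR-19b-3p and miR-92a-3p have a second gene each in the miR-106a-363 cluster on chromosome X (Mir19b-2 and Mir92-2) with the identical mature sequence, so their signals sum the products of both loci. The Mir17 hairpin (chr14:115043671-115043754, plus strand) is printed with its 5p and 3p arms in capitals, since it is the only hairpin here with both arms among the members.
Mir17 hairpin: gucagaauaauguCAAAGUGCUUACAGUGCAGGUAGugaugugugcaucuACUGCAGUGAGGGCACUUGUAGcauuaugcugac

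Levels are given as the log2 of the array signal after each array was scaled to its 75th percentile over 248 miRNAs detected on every array. The arrays detected 300 to 403 miRNAs each, and the number of arrays, 2 a group, limits the precision of every value. Signals of the members were 4.30 to 13.6 times their own error as the scanner software gave it. Marker miRNAs of other cell types were present and differed between groups and between arrays. On the colon arrays 11 of 11 epithelial markers were detected, with a summed scaled signal of 4144 to 5837, against 10 of 11 on microglia replicate 1 (1154), 3 of 11 on microglia replicate 2 (62.5) and 4 of 11 on each liver array (224 and 490). The hepatocyte marker miR-122-5p was at 11.07 and 11.82 in the liver pools, 8.11 and 7.30 in the microglia pools, and not detected in the colon pools. Endothelial miR-126-3p was at 11.94 and 11.27 in the liver pools, 7.90 and 7.71 in the colon pools and 5.15 on microglia replicate 1, and was not detected on microglia replicate 2. Erythrocyte miR-451a was at 9.46 and 6.93 in the microglia pools, against 5.68 to 7.43 on the other 4. Of the neuron markers 4 of 7 were detected on each microglia array, with summed signals of 63.4 and 63.5, and 1 or 2 of 7 on the others (12.1 to 27.6). All 3 oligodendrocyte markers were detected on every array, with sums of 194 to 202 in microglia, 83.4 to 85.2 in colon and 117 to 237 in liver macrophages. Lymphocyte markers summed to 1045 to 1286, 189 to 192 and 241 to 607 in the same order, with miR-150-5p not detected in microglia. Granulocyte and other myeloid markers, 3 of 4 of them on every array, summed to 5231 to 5901, 10703 to 12907 and 5594 to 10083. Smooth muscle and fibroblast markers numbered 0 or 1 of 5 on the microglia arrays, 4 or 5 on the colon arrays and 3 on the liver arrays. The pan-leukocyte miR-142-3p was detected on all arrays (11.24 to 12.31), and the sorted populations could not be checked against their surface markers, which are proteins. The part of other cells in the levels below was not tested, and in such bulk samples fewer expressing cells and less RNA per cell cannot be told apart.

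All 10 members were higher in microglia than in colon and liver macrophages, with no overlap between the microglia arrays and the other 4 for any of them. In limma's moderated test with Benjamini-Hochberg adjustment over all tested miRNAs, 4 of the 10 passed the threshold of 0.05 against colon macrophages and 8 of 10 against liver macrophages, all higher in microglia. The 2 comparisons share the microglia arrays. Of all miRNAs tested against colon macrophages (379), 46.2% were called, 17.7% higher in microglia and 28.5% lower. Against liver macrophages (382 tested) 52.9% were called, 21.2% higher and 31.7% lower. Among the 248 detected on all arrays, as every member was, 16.9% were called higher than in colon and 23.8% higher than in liver macrophages. Arrays that did not overlap, which held for all 10 members with microglia higher, were found in that direction for 34.0% of tested miRNAs against colon and 32.7% against liver macrophages (39.1% and 38.3% of the 248), and in the other direction for 51.2% and 48.7%.

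**Figure D1:**
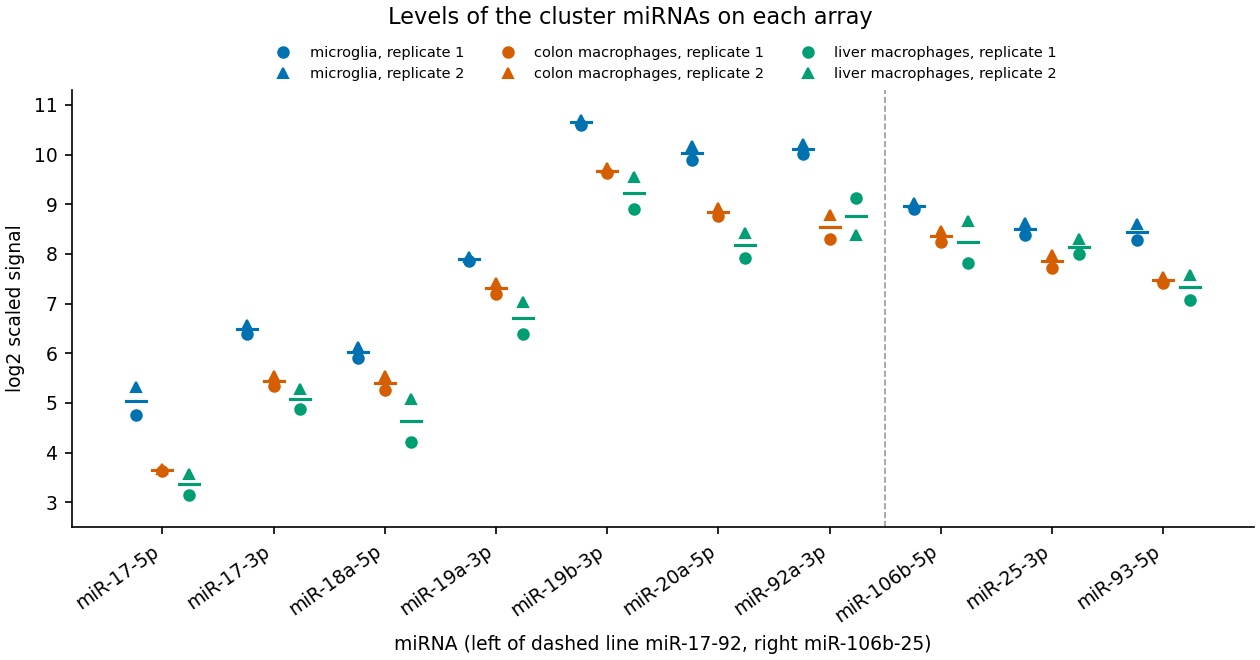
Level of each of the 10 miRNAs on each array, as log2 scaled signal on the vertical axis. Circles are replicate 1, triangles replicate 2 and bars the mean of 2 arrays. The microglia points lie above the other 4 for each miRNA, by 0.10 for miR-25-3p and by 1.09 for miR-17-5p at the nearest pair of arrays. Heights of different miRNAs are not comparable, since brightness also depends on the probe.

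Within the miR-17 seed family, known to repress the cell cycle inhibitor Cdkn1a (p21), miR-20a-5p read 9.90 and 10.18 in the microglia pools, 8.77 and 8.92 in the colon pools and 7.92 and 8.43 in the liver pools. The 3 groups did not overlap, and microglia were highest. It rose 2.28-fold in microglia over colon macrophages (log2 change 1.19, SE 0.30, limma adjusted p = 0.0301) and 3.63-fold over liver macrophages (1.86, SE 0.30, limma adjusted p = 0.00626, n = 2). miR-17-5p read 4.76 and 5.31 in the microglia pools, 3.64 and 3.67 in the colon pools and 3.16 and 3.57 in the liver pools, again with microglia apart from the rest. Its changes were 1.38 (SE 0.32) against colon and 1.67 (SE 0.32) against liver macrophages (limma adjusted p = 0.0241 and 0.0106). Before scaling, its signal on the colon and liver arrays was 9.72 to 15.9 units. With quantile normalization its changes were 2.90 and 3.72.

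The same seed in miR-106b-25 gave smaller differences. miR-93-5p read 8.27 and 8.60 in the microglia pools, 7.41 and 7.54 in the colon pools and 7.08 and 7.58 in the liver pools. Colon and liver arrays overlapped, and both lay under microglia. The change against liver macrophages passed (1.11, SE 0.30, limma adjusted p = 0.0301), and that against colon macrophages did not (0.96, SE 0.30, limma adjusted p = 0.0507). miR-106b-5p stood at 8.90 and 9.02, 8.25 and 8.47, and 7.81 and 8.66 in the same order. Its differences were 0.60 against colon (95% interval -0.32 to 1.52) and 0.72 against liver macrophages (-0.20 to 1.65), and neither passed (limma adjusted p = 0.21 and 0.144).

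In the miR-19 family, whose members carry much of the cluster's oncogenic activity in mouse lymphoma, miR-19b-3p read 10.60 and 10.69 in the microglia pools, 9.64 and 9.72 in the colon pools and 8.91 and 9.54 in the liver pools. It rose by 1.42 log2 units over liver macrophages (SE 0.31, limma adjusted p = 0.0164), and its difference from colon macrophages of 0.97 did not pass (SE 0.31, limma adjusted p = 0.0509). miR-19a-3p read 7.87 and 7.93 in the microglia pools, 7.18 and 7.42 in the colon pools and 6.39 and 7.03 in the liver pools. It passed against liver (1.19, SE 0.32, limma adjusted p = 0.0291) and not against colon macrophages (0.59, 95% interval -0.21 to 1.40, limma adjusted p = 0.17). For both miR-19 miRNAs the 3 groups did not overlap and fell in the order microglia, colon, liver. miR-18a-5p, whose hairpin is known for a processing step of its own that needs the RNA-binding protein hnRNP A1, behaved alike in order: 5.91 and 6.12, 5.26 and 5.54, and 4.22 and 5.07. Its change was 1.38 against liver macrophages (SE 0.37, limma adjusted p = 0.0293) and 0.62 against colon macrophages (95% interval -0.32 to 1.56, limma adjusted p = 0.209).

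The AUUGCAC family is known to repress the pro-apoptotic gene Bcl2l11 (Bim). miR-92a-3p read 10.01 and 10.22 in the microglia pools, 8.30 and 8.78 in the colon pools and 9.12 and 8.39 in the liver pools. Colon and liver arrays overlapped, and microglia lay above both, by 1.57 over colon (SE 0.36, limma adjusted p = 0.0246) and 1.36 over liver macrophages (SE 0.36, limma adjusted p = 0.0292). miR-25-3p stood at 8.39 and 8.62, 7.73 and 7.98, and 8.00 and 8.29. It had the least difference of the 10 from liver macrophages, 0.36 (95% interval -0.34 to 1.05, limma adjusted p = 0.302), and 0.65 from colon macrophages (95% interval -0.04 to 1.35, limma adjusted p = 0.0978). On no scaling and on control-row scaling its difference from liver macrophages turned to -0.02 and -0.42.

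Both arms of the Mir17 hairpin were higher in microglia. miR-17-3p read 6.39 and 6.57 in the microglia pools, 5.34 and 5.54 in the colon pools and 4.88 and 5.28 in the liver pools, a rise of 1.04 over colon (SE 0.28, limma adjusted p = 0.0339) and 1.40 over liver macrophages (SE 0.28, limma adjusted p = 0.0123). The signal of the 5p arm less that of the 3p arm on the same array, which does not depend on a scaling that divides an array by 1 factor, was -1.63 and -1.26 in microglia, -1.70 and -1.86 in colon and -1.72 and -1.71 in liver macrophages. The microglia arrays lay above the other 4 by at least 0.07, less than the 0.37 between the microglia replicates themselves.

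**Figure D2:**
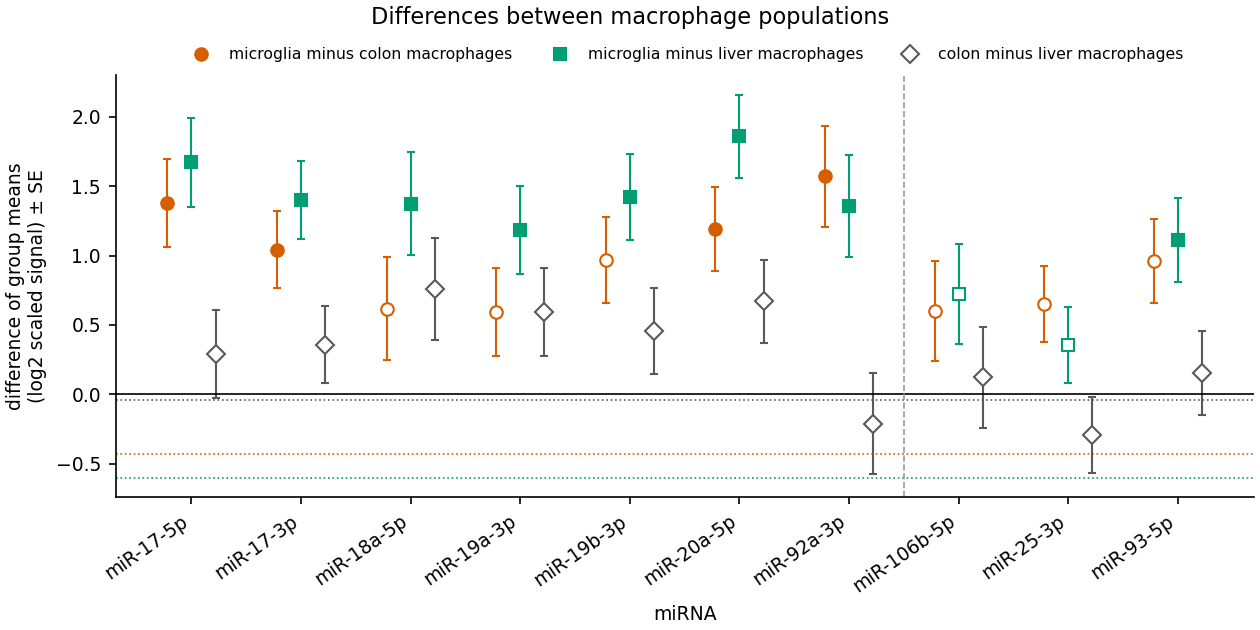
Difference of group means for each miRNA (vertical axis, log2 units, with standard errors) in the 3 comparisons. Filled symbols passed the adjusted threshold of 0.05 and open ones did not. Dotted lines give the median over all tested miRNAs, which lay at -0.43, -0.60 and -0.04. All microglia differences lie above 0, and the colon minus liver differences of 0.76 down to -0.29 lie on both sides of it.

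The median change of the 10 members was 0.96 against colon macrophages, where that of all tested miRNAs was -0.43, and 1.37 against liver macrophages, where that of all was -0.60. Relative to these medians the members lay 1.39 and 1.97 higher. Among the 248 miRNAs detected on all arrays the medians were -0.04 and 0.03, and the members lay 1.00 and 1.34 higher. Under all 17 alternatives of scaling, filter, floor, design and left-out arrays the 10 members were higher in microglia than in colon macrophages. Only the 5 other scalings could turn a sign, since filter and design leave a difference of group means as it is. A floor cannot turn it, nor can leaving out 1 array where the arrays do not overlap. Over these 5 scalings 0 to 10 members were called. The 0 came with no scaling, where limma gave 1 member an unadjusted p below 0.05. Against liver macrophages all 10 were higher under 15 of the 17, the exceptions being no scaling (9 higher) and control rows (8 higher). Over the same scalings 0 to 10 were called. There the 0 came with scaling on control rows (unadjusted p below 0.05 for 1 member).

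Over the 5 other scalings the members' median lay 1.11 to 1.40 above that of all tested miRNAs against colon and 1.53 to 2.00 against liver macrophages, lowest with quantile normalization in both. Where a scaling divides each array by 1 factor, this distance is fixed apart from the floor. With median scaling 10 of 10 were called in both microglia comparisons, beside 29.6% (colon) and 32.5% (liver) of all tested miRNAs called higher. In the authors' deposited value table limma called 8 against colon and 7 against liver macrophages, beside 25.1% and 28% of all. With no scaling or with control rows at most 1 was called, beside 7.59% to 9.42% of all. Against colon macrophages calls among all tested miRNAs thus moved the same way as those of the members. Against liver macrophages they did not do so throughout. From 21.2% and 8 members in the reported fit, the share of all called higher rose to 26.4% (quantile normalization) and 28% (authors' table). Members called fell to 7 in both. miR-20a-5p was called against liver macrophages under 15 of 17 alternatives and miR-17-5p under 14, compared with 5 for miR-92a-3p and 1 for miR-25-3p.

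**Figure D3:**
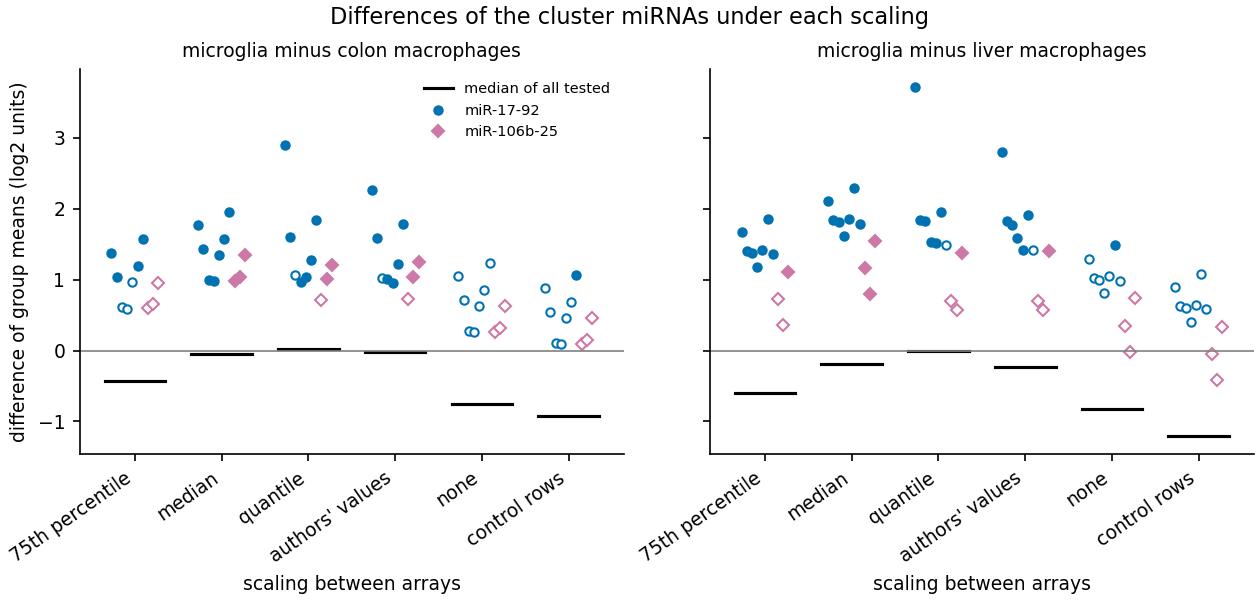
Difference of group means for each miRNA (vertical axis, log2 units) under 6 ways of scaling the arrays (horizontal axis), against colon macrophages on the left and liver macrophages on the right. Circles are miR-17-92 and diamonds miR-106b-25, filled where the adjusted p was under 0.05, and bars are the median of all tested miRNAs. The bars run from 0.03 down to -0.92 on the left and from 0 down to -1.21 on the right.

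The number of calls depended on which arrays were fitted, for the members and for all tested miRNAs. Leaving out 1 array also leaves fewer residual degrees of freedom and 1 array in its group. A lost call therefore does not show that the array decided it, and only sizes are given here. Without microglia replicate 1, the array with epithelial markers and high miR-451a, the members' differences were 0.62 to 1.67 against colon and 0.47 to 2.00 against liver macrophages. Without microglia replicate 2 they were 0.51 to 1.47 and 0.24 to 1.72. Against colon macrophages they were 0.47 to 1.36 without colon replicate 1 and 0.71 to 1.81 without colon replicate 2. Against liver macrophages they were 0.21 to 1.72 without liver replicate 1 and 0.50 to 2.11 without liver replicate 2. These fits assume that the lone array of a group varies like the other groups.

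Between colon and liver macrophages none of the 10 passed in limma's test, in either direction (unadjusted p below 0.05 for 0 of them), where 10.1% of all tested miRNAs were called, 5.30% higher in colon and 4.80% lower (2.82% higher among the 248 detected on all arrays). The median difference of the members was 0.32, beside -0.04 for all. The 95% intervals leave room for sizeable differences, such as -0.09 to 1.43 for miR-20a-5p (difference 0.67) and -0.18 to 1.70 for miR-18a-5p (0.76). Colon arrays lay above liver arrays without overlap for 6 members, and the reverse held for miR-25-3p (-0.29, 95% interval -0.99 to 0.40). Such separation upwards was found for 25.3% of all tested miRNAs (26.6% of the 248) and downwards for 34.3%. The only members with a negative difference were miR-92a-3p and miR-25-3p, which share a seed but lie on different chromosomes. The sign for miR-92a-3p (-0.21) turned to 0.02 without colon replicate 1 and to 0.15 without liver replicate 1. That for miR-25-3p, whose arrays did not overlap, stayed negative under all 5 other scalings. Without liver replicate 2, 1 member, miR-19b-3p, was called higher in colon macrophages (0.77).

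Liver replicates disagreed most. All 10 members were higher on replicate 2 than on replicate 1 in microglia (by 0.06 to 0.55) and in colon macrophages (by 0.04 to 0.47). In liver macrophages 9 of 10 were higher on replicate 2, by up to 0.86 (miR-106b-5p), and miR-92a-3p was 0.73 lower. For 7 of the 10 this gap exceeded 2 times the error that the arrays' own signal errors give, against 1 of 10 in microglia and 1 of 10 in colon macrophages. The median gap of 0.57 was the same as over all 248 miRNAs detected on every array. Along with miR-92a-3p, endothelial miR-126-3p (11.94 and 11.27) and lymphocyte miR-150-5p (8.97 and 7.09) were higher on liver replicate 1. Hepatocyte miR-122-5p (11.07 and 11.82), pan-leukocyte miR-142-3p (11.24 and 12.04) and myeloid miR-223-3p (11.45 and 12.40) were higher on replicate 2. Their part in the gaps was not tested.

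Averaged over their members, the clusters differed in how far microglia stood apart, though against colon macrophages the ranges of single members overlapped. For miR-17-92 the differences ran from 0.59 to 1.57 against colon and 1.19 to 1.86 against liver macrophages, and for miR-106b-25 from 0.60 to 0.96 and 0.36 to 1.11. The mean level over the 7 miR-17-92 members less that over the 3 miR-106b-25 members was taken on each array, where a factor common to the array drops out. The value itself mixes probes and has no meaning, but its shift between groups does not depend on such a factor. It was -0.60 and -0.60 for microglia, -0.92 and -0.91 for colon pools, and -1.26 and -1.42 for liver pools. The groups did not overlap, with gaps of 0.31 between microglia and colon arrays and 0.34 between colon and liver arrays, against 0.16 for the widest replicate pair. Relative to the mean of miR-106b-25, the mean of miR-17-92 was thus highest in microglia and lowest in liver macrophages. This holds for the means and not for each pair of members. The miR-17-92 mean includes miR-19b-3p and miR-92a-3p, whose signals also hold products of their chromosome X genes. No p-value is given for a score over chosen members. With quantile normalization the group means were -0.49, -1.04 and -1.60, and in the authors' deposited value table -0.54, -0.94 and -1.47, in the same order.

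**Figure D4:**
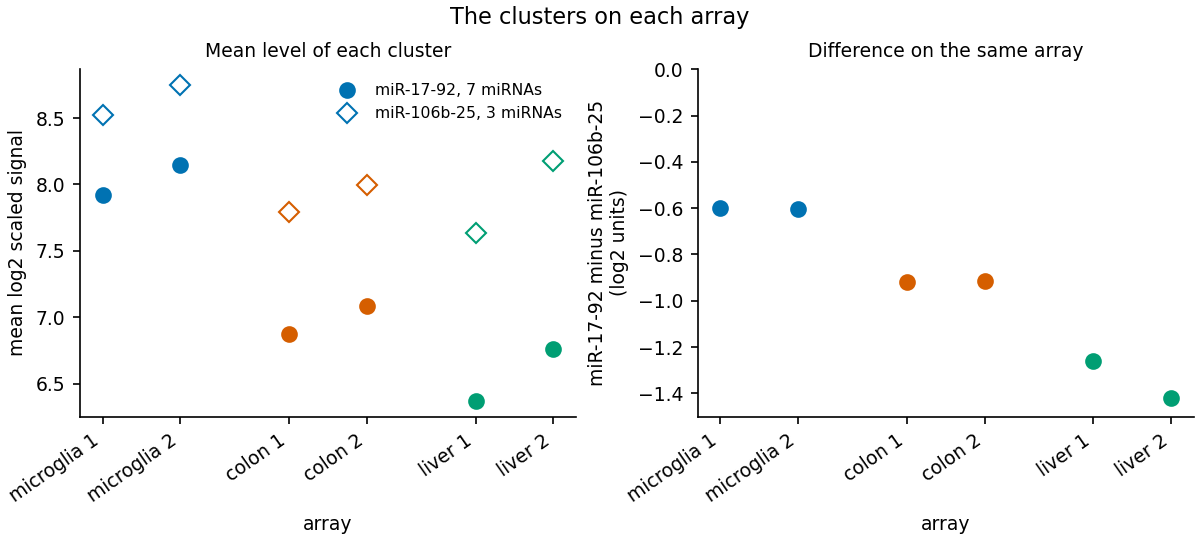
Mean log2 scaled signal of the 7 miR-17-92 miRNAs (filled circles) and the 3 miR-106b-25 miRNAs (open diamonds) on each array, left, and their difference on the same array, right. The mean of miR-17-92 falls from 7.92 and 8.15 in microglia to 6.37 and 6.76 in liver macrophages. The difference steps from -0.60 in microglia to about -0.92 in colon and to -1.26 and -1.42 in liver macrophages.

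Single pairs across and within the clusters differed in their order. miR-20a-5p less miR-106b-5p, which share a seed and 18 of 21 aligned bases, was 1.00 and 1.16 in the microglia pools, 0.52 and 0.45 in the colon pools and 0.11 and -0.24 in the liver pools. The populations were apart on every array. miR-92a-3p less miR-25-3p was 1.62 and 1.59 in microglia and 0.58 and 0.80 in colon macrophages, but in liver macrophages it ran from 1.12 to 0.10, so that colon and liver arrays overlapped. miR-19a-3p less miR-19b-3p, within 1 cluster, was -2.73 and -2.76 in microglia, -2.45 and -2.29 in colon and -2.52 and -2.51 in liver macrophages, lowest in microglia.

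**Figure D5:**
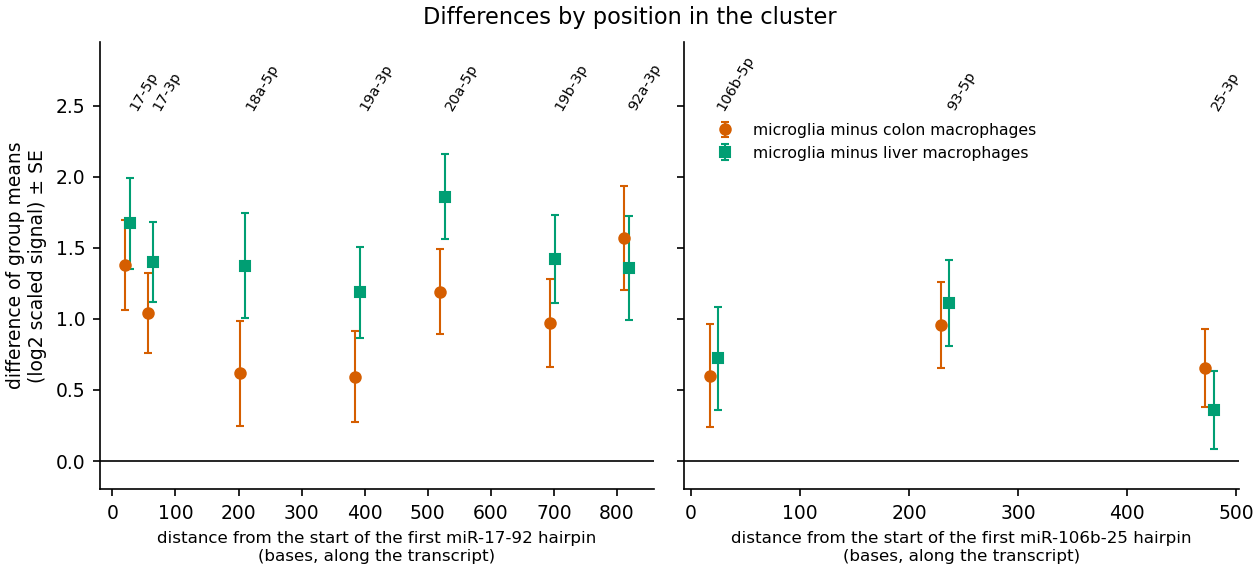
Difference of group means (vertical axis, log2 units, with standard errors) by distance of the mature miRNA from the start of the first hairpin of its cluster, along the transcript, for miR-17-92 (left) and miR-106b-25 (right). Circles compare microglia with colon and squares with liver macrophages. Against colon macrophages the highest miR-17-92 values, 1.38 and 1.57, lie at its first and last miRNA, and the lowest, 0.62 and 0.59, at miR-18a-5p and miR-19a-3p between them, with standard errors of 0.28 to 0.37. The last, miR-92a-3p, and miR-19b-3p also have a gene each on chromosome X, which adds to their signals.

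The estimated differences varied among the members of miR-17-92. Signals of miR-19b-3p and miR-92a-3p also hold products of their chromosome X genes, so the series does not describe 1 transcript alone. Along miR-17-92 the differences from colon macrophages were 1.38 and 1.04 for the arms of Mir17, 0.62 for miR-18a-5p, 0.59 for miR-19a-3p, 1.19 for miR-20a-5p, 0.97 for miR-19b-3p and 1.57 for miR-92a-3p. Against liver macrophages the same series read 1.67, 1.40, 1.38, 1.19, 1.86, 1.42 and 1.36. Differences between neighbouring members were not tested.

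The third cluster of the family, miR-106a-363 on chromosome X, was represented by 3 of 4 listed miRNAs. Of these miR-18b-5p and miR-363-3p were detected on no array, and miR-106a-5p was not analysed here. miR-20b-5p, printed because it carries the miR-17 seed and differs from miR-20a-5p at 2 of 23 bases (U1C and U10C, miR-20a-5p first), was detected on every array.
miR-20b-5p: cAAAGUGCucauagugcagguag
Its levels were 8.76 and 9.05 in the microglia pools, 7.68 and 7.84 in the colon pools and 7.11 and 7.35 in the liver pools. The groups did not overlap. It rose by 1.14 over colon (SE 0.27, limma adjusted p = 0.0251) and 1.67 over liver macrophages (SE 0.27, limma adjusted p = 0.00626). miR-20a-5p less miR-20b-5p stayed between 0.81 and 1.14 on all 6 arrays, so the pair moved nearly in step. Signal shared between their probes was not tested.

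In all 10 further miRNAs outside the members share a seed with one of them in RefSeq, of which 9 were on the array and 2 were detected on any array, miR-20b-5p and miR-32-5p. miR-32-5p (chr4:56895272-56895293, minus strand) has the AUUGCAC seed of miR-92a-3p and miR-25-3p, and matches miR-92a-3p at 11 of 21 bases.
miR-32-5p: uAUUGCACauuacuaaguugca
It stood at 3.54 and 3.21 in microglia and was not detected in colon or liver macrophages. Its microglia level was 3.03-fold and 3.78-fold above the lowest signals detected for any miRNA on the colon and liver arrays. These are not lower bounds, since the detection limit of its own probe is not known. It passed in limma's test (adjusted p = 0.00705 against colon and 0.00519 against liver macrophages), where the undetected group entered at a common floor with an SD of 0 set by that floor. It entered the test only through its detection in microglia. The lowest signals of the liver arrays averaged 1.46, below the floor of the fit (1.64), against which the log2 difference was 1.74. Between colon and liver macrophages only miR-20b-5p was tested, and it did not pass (0.53, limma adjusted p = 0.307).

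Opposite arms of the hairpins were near or under the detection limit. Of 10 such arms on the array 8 were detected on no array. miR-20a-3p was detected on both microglia arrays (2.10 and 2.04) and on none of the other 4. Both levels lay under the lowest signal detected for any miRNA on colon replicate 2, so no lower bound on the fold is given. It did not pass in limma's test (log2 difference 0.43 from the floor of the fit, adjusted p = 0.177 and 0.172). miR-92a-2-5p, made from the chromosome X gene Mir92-2, was detected on colon replicate 1 (1.82) and on the liver arrays (1.64 and 1.65), at most 0.18 above the floor of 1.64, and on neither microglia array. It did not pass in the comparisons in which it was tested. miR-92a-1-5p, the corresponding arm from chromosome 14, was detected on no array, so the arms do not show from which locus the signal of miR-92a-3p came.

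Other miRNAs followed the same profile. Among 237 miRNAs detected on all arrays and outside the lists above, the 5 closest to the members' mean profile over the 6 arrays were miR-425-5p, miR-30e-5p, miR-5100, miR-350-3p and miR-107-3p, with a root mean square distance of 0.11 to 0.15 log2 units after centring, against a median of 0.72 over all 237. For the members, set against the mean of the other 9, it ran from 0.07 (miR-17-3p) and 0.09 (miR-93-5p) to 0.41 (miR-25-3p) and 0.49 (miR-92a-3p). For 7 of the members this distance was larger than for each of the 5 named miRNAs. Those 5 were picked as the closest of 237 by this same distance, while the members were not picked by it. The comparison therefore cannot show which of them follow the profile better. miR-425-5p, the closest, averaged 7.86 ± 0.23 in microglia, 6.87 ± 0.10 in colon macrophages and 6.53 ± 0.35 in liver macrophages (SD, n = 2). The choice depends on the scaling: median scaling gave the same 5, whereas 1 of them, miR-425-5p, stayed among the nearest with quantile normalization and 1, miR-5100, in the authors' deposited value table.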

How the data were processed

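Total RNA (100 ng per sample) was labelled with Cy3 and hybridised to 1-colour Agilent miRNA arrays, per the labels' protocols. The authors deposited for each array, per the file headers, a total gene signal (a linear intensity, 0.1 where not detected), its error and a detection flag, written per the submitters' processing notes by Agilent Feature Extraction 9.1. The deposited value table of 595 miRNAs is on a log2 scale (all columns have a median of 3.72, r = 0.992 with the levels used here across 248 miRNAs and 6 arrays). The sources used here do not give its normalization. It was tried as an alternative. Lacking background signals, slides and scan dates, the files allowed no normexp correction and no block for slide or scan.

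The signals of 1247 mouse miRNAs (21 control rows left out) were divided by the 75th percentile of each array, taken over 248 miRNAs that every array detected, multiplied by the mean of these percentiles, raised to a floor of 3.12 (the median of the lowest detected signals, 1.64 in log2) and log2-transformed. limma 3.58.1 in R 4.3.3 fitted 3 group means over 6 arrays (3 residual and 2.20 prior degrees of freedom), 2-sided, adjusting (Benjamini-Hochberg) over those miRNAs that both arrays of 1 or both compared groups detected. Alternatives covered scaling, floor, filter, the arrays fitted, the replicate block and each left-out array. The code was tested on simulated data. The named miRNAs are the members, their listed relatives, miRNAs with the same seed and the 5 nearest profiles; members and lists were chosen with earlier results of these data known.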

Additional observations from a re-analysis of the deposited data

How the results depend on the processing

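The 17 alternatives moved the call counts through scaling, floor, filter, the arrays fitted, the replicate block and left-out arrays. Members called higher against colon macrophages numbered 4 in the reported fit, 10 with median scaling, 8 with quantile normalization, 8 in the authors' deposited value table, 1 on control rows and 0 with no scaling (limma, unadjusted p below 0.05 for 1). Against liver macrophages they numbered 8, and 1 with no scaling, 0 on control rows (limma, unadjusted p below 0.05 for 1) and 5 with only the 4 arrays compared. Of all tested miRNAs, 17.7% were called higher against colon in the reported fit, and 29.6%, 24.8%, 25.1%, 8.44% and 7.65% in the order above. Against liver the shares were 21.2%, then 9.42%, 7.59% and 14.9%. The share of all calls that were higher moved against colon from 38.3% to 61.9% (median), 65.3% (quantile), 59.4% (authors' table), 21.2% (none) and 20.5% (control rows), against liver from 40.1% to 53.4%, 54.9%, 51.9%, 22.2% and 15.1%, and between colon and liver from 52.5% to 39.2%, 36.8%, 48.6%, 53.8% and 33.3%. Without the detection filter limma called 0 members in the microglia comparisons (unadjusted p below 0.05 for 7 and 8), and 27, 52 and 7 miRNAs in all (colon, liver, colon against liver) in place of 175, 202 and 40. A floor 4 times as high gave 99, 134 and 25, and testing only miRNAs detected on all 6 arrays gave 111 against colon and 19 between colon and liver. Between colon and liver 26 were called with no scaling and 24 on control rows. With each array left out in turn, members higher numbered 0 to 8 against colon, 2 to 8 against liver and 0 to 1 between colon and liver, and all calls 54 to 202, 121 to 228 and 25 to 110.

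Nothing says that replicate numbers pair arrays. Deviations of same-numbered arrays correlated at 0.21, 0.07 and -0.09 over 248 miRNAs, while among the members replicate 2 was the higher for 10, 10 and 9 of 10 (microglia, colon, liver). With the replicate number as a block 24 miRNAs were called between colon and liver. Of the members 4 and 7 were called higher in microglia than in colon and liver macrophages, beside 15% and 17.8% of all tested miRNAs. miR-92a-3p had a limma adjusted p of 0.0508 against liver.

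Reversed signs concerned differences that did not pass. Against liver macrophages miR-25-3p turned to -0.015 with no scaling, and miR-25-3p and miR-106b-5p to -0.42 and -0.053 on control rows. Between colon and liver, miR-106b-5p turned to -0.016 with quantile normalization, -0.02 in the authors' table and -0.15 on control rows, and miR-93-5p to -0.12 on control rows. With single arrays left out, from liver replicate 1 to liver replicate 2, miR-106b-5p ran from -0.30 to 0.55 and miR-93-5p from -0.10 to 0.40, and miR-92a-3p was 0.15 without liver replicate 1, 0.02 without colon replicate 1 and -0.58 without liver replicate 2. The causes were not tested. The 75th percentile over all 1247 miRNAs was not run, since on microglia replicate 1 it is the placeholder of 0.1. A mean of 2 arrays and standard errors of 0.27 to 0.37 limit what differences between groups can be resolved for each member.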
